A study of Mus musculus with 16 samples.

Results

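The effect of the JAK inhibitor ruxolitinib (Rux) on gene expression was examined in mouse bone marrow-derived macrophages (BMDMs) that were exposed to tumor conditioned media (CM). The comparison used 6 of the 16 RNA-sequencing samples of the series, chosen by their labels. They were 3 samples of CM and the 3 samples of CM + Rux labelled 4 h, matched by replicate number 1 to 3. The labels of the CM samples give no time. BMDMs are macrophages grown in culture from bone marrow, here of 8-week-old wild-type Balb/c mice, and the CM came from 4T1 cells, a mouse mammary tumor line. The cells were starved of serum and then received CM. In CM + Rux, 0.5 μM ruxolitinib was present from the starvation onwards, so that it was there when the tumor factors arrived, while CM received vehicle. CM is a mixture of whatever the tumor cells release, so it does not show which factor a response belongs to. Ruxolitinib was also given to BMDMs in DMEM, the medium without tumor factors (2 samples of DMEM and 3 of DMEM + Rux, whose labels give neither dose nor time), and these samples served as a second comparison. The labels do not say whether samples of a group came from separate animals or cultures, so p-values measure the spread between these samples, which may be technical. In bulk RNA, fewer cells of a type and less RNA per cell cannot be told apart.

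Receptors for interferons and for many interleukins and colony-stimulating factors have no kinase of their own and signal through pairs of Janus kinases (JAK1, JAK2, JAK3 and TYK2). The kinases phosphorylate STAT proteins, which enter the nucleus and bind DNA either as dimers at GAS elements or, in a complex with IRF9, at the interferon-stimulated response element (ISRE). Macrophages use this pathway to respond to interferons, IL-6, IL-10, IL-4 and GM-CSF, and some of the genes it switches on, among them the SOCS genes and Cish, feed back to restrain it. Ruxolitinib blocks the kinase activity of JAK1 and JAK2.

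Between 18892363 and 46215853 fragments were counted on genes in each of the 6 samples. Levels are CPM, the counts of a gene per 1000000 counts of its library after scaling by relative log expression (RLE), and 12372 genes exceeded 1 CPM in 2 or more of the 16 samples. A gene was called lower or higher where edgeR's quasi-likelihood test gave an adjusted p under 0.05 and a log2 fold change beyond 0.5. The log2 fold change is written as CM + Rux minus CM and given with its standard error (SE). The samples entered this test unpaired, and the replicate number was used only where stated. All 12 macrophage markers examined were present, with a summed level of 50876 to 59264 CPM in CM and 51409.9 to 60703 CPM in CM + Rux. The summed level of 10 epithelial markers was 12 to 17.1 CPM in CM and 5.84 to 11.4 CPM in CM + Rux, with Krt14 and Krt5 at 0. Most of this sum is 1 gene, the only 1 of the 10 among the genes tested. It had 11 to 16.3 CPM in CM and 5.64 to 11 CPM in CM + Rux. Its log2 change was -0.70, and it was called lower only with the replicate number in the model. Fibroblast markers summed to 26.9 to 30.5 CPM and 31.8 to 33.9 CPM, B cell markers to 17.9 to 25.7 CPM and 20.1 to 26.9 CPM, and markers of neutrophils, dendritic cells and T and NK cells to at most 11.1 CPM in any of the 6 samples. Their part in the results was not tested.

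Ruxolitinib lowered 263 genes in CM (2.13% of the genes tested) and raised 149 (1.2%). These shares over all genes are the background for the counts of each list below. The lists overlap, so their counts are not separate. Irf9, Irf7, Stat2, Usp18 and Lgals9, for example, count in the antiviral list and again in another list. Of the lower genes 143 fell by more than 1 on the log2 scale and 43 by more than 2, against 50 and 5 of the higher genes that rose by as much. The median log2 fold change was -1.05 over the lower genes, 0.78 over the higher genes and 0.01 over all genes tested. Every called gene moved the same way in 3 of 3 replicate pairs. The samples of the groups did not overlap for 262 of the 263 lower and 148 of the 149 higher genes. Over all genes this was so for 9.57% in the lower and 9.66% in the higher direction. A call itself favours both, so neither is separate support, here or where called genes are described below. In the model with replicate numbers 440 genes were called lower (3.56%) and 305 higher (2.47%), among them 262 of the 263 and all 149. Fewer genes of both directions were called without CM replicate 2 (164 lower and 94 higher) or without CM + Rux replicate 1 (161 and 82), and without CM replicate 1 there were 93 higher. Where the call of a named gene ended when 1 sample was left out, the sample is given by group and replicate number (CM 2, CM + Rux 1) with the adjusted p without it in parentheses. A range over all alternatives at the end of such a sentence covers all genes in that sentence together, not the last gene alone.

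**Figure D1:**
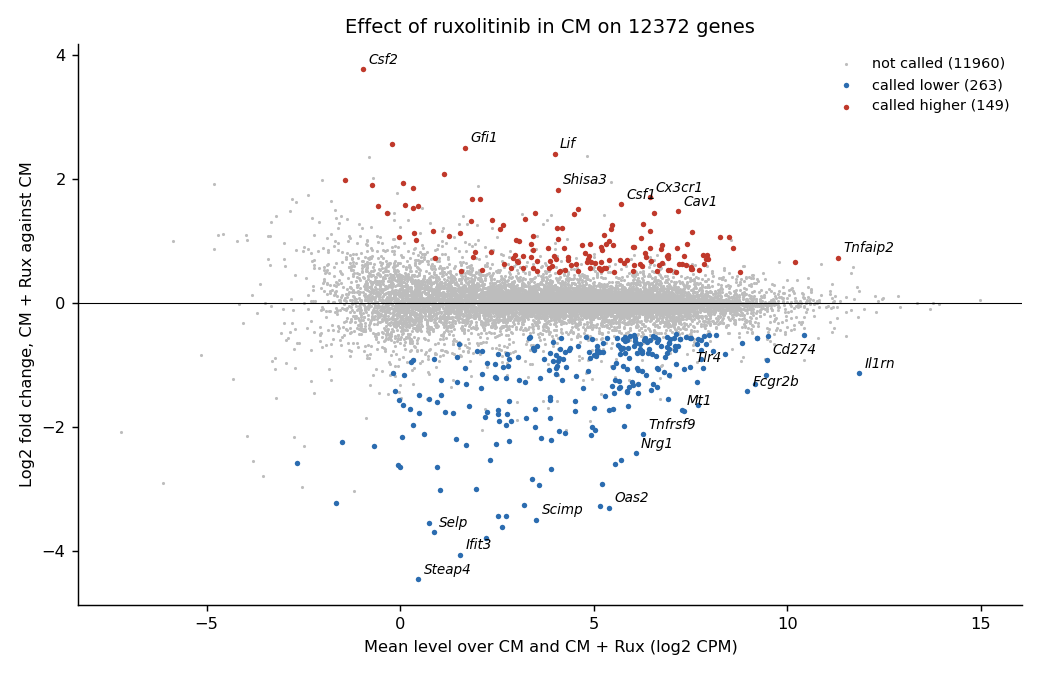
Log2 fold change of each gene in CM + Rux against CM (vertical axis) against its mean level over both groups in log2 CPM (horizontal axis). The 263 genes called lower reach -4.45 and the 149 called higher reach 2.56 for Inava, leaving out Csf2, the highest point, whose CM samples hold at most 3 counts each, so that its fitted value is no measured fold.

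Among genes at 1 CPM or more on average whose groups did not overlap, the 15 that fell most were Steap4 and Selp, Ifit3, Mx2, Ifit2, Slfn1, Scimp, Ifi44l, Slamf1, Oas2, Rtp4, Usp18, Gm12250, Gm5431 and Pgf. Antiviral and other interferon-induced genes make up most of these names, but Steap4, Selp, Scimp, Slamf1 and Pgf are not of that kind. The largest rises included those of Gfi1, Lif, Ptpru, Adgb, Cxcr3, Shisa3, Cx3cr1, Gm19026, Treml4, Csf1, U90926, Gm30329, Nptx1 and Cav1, among them cytokines, receptors and a transcriptional repressor. The call of Adgb (0.05 to 0.081) was lost without CM 1 or 2 or CM + Rux 1, 2 or 3, that of Gm19026 (0.12 to 0.19) without CM 1 or 2 or CM + Rux 1 or 3, that of U90926 (0.093 to 0.14) without CM 1 or 3 or CM + Rux 1, that of Gm30329 (0.051 to 0.17) without CM 1, 2 or 3 or CM + Rux 1 or 3 and that of Nptx1 (0.051 to 0.16) without any 1 of the 6 samples (adjusted p 9.5e-06 to 0.19 over all alternatives). The call of Gm19026 did not pass under TMM scaling either.

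**Figure D2:**
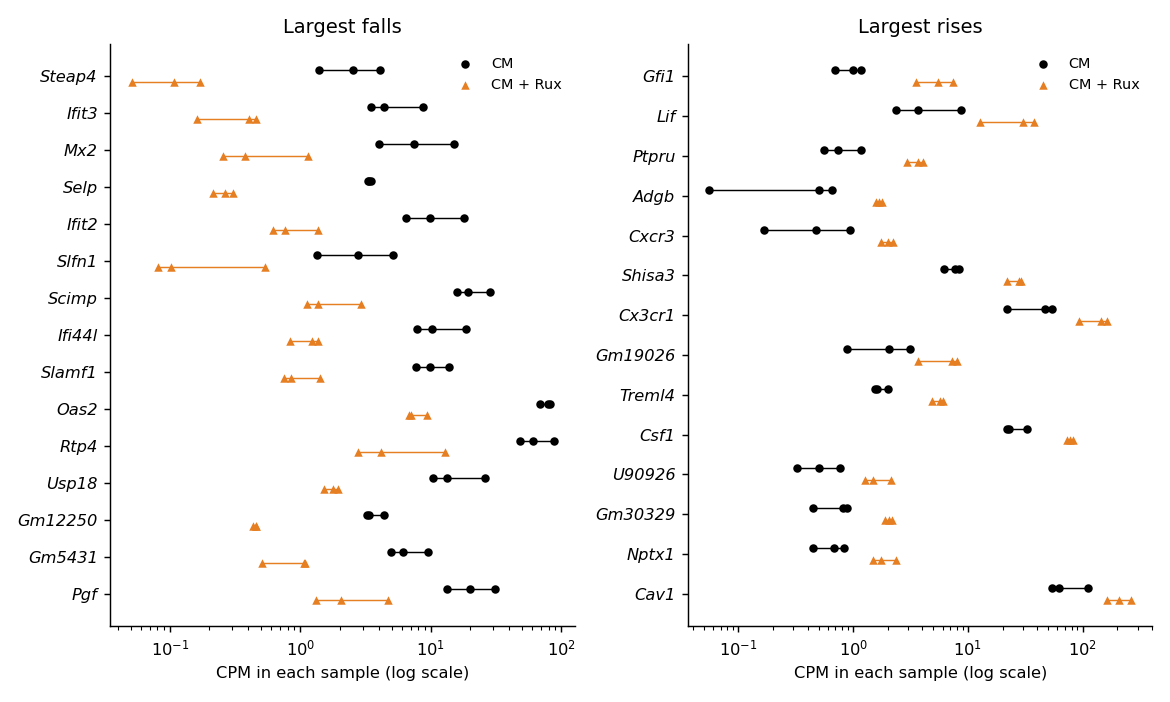
CPM in each sample on a log axis for genes with the largest falls (left) and rises (right), with CM as circles, CM + Rux as triangles and a line over the range of each group. The groups do not overlap for any gene shown, since this was part of the rule that chose them, and the 3 CM values of Selp lie close together.

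The stretches before the start of some of these genes hold the letters that STAT complexes are known to bind. An ISRE core was searched as GAAANNGAA and a GAS element as TTCNNNGAA, on both strands, in the 250 bases before each start in RefSeq (GRCm38.p6). Among the 32851 promoters listed there, 7.13% hold the first and 7.02% the second. The table holds a promoter for 203 of the 263 lower genes (77.2%) and 112 of the 149 higher genes (75.2%), which is under 80%, so a comparison of motif shares between these sets is void. The sequences below were picked from genes described here because they hold a match, which is shown in capitals and describes the letters only. The first group are genes of the interferon response, and Socs1 is a feedback gene that was not called in CM.
Ifit3 (chr19:34583359-34583450, plus strand): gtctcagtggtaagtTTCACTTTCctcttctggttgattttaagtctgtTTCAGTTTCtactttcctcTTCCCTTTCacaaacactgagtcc
Gm12250 (chr11:58183738-58183821, plus strand): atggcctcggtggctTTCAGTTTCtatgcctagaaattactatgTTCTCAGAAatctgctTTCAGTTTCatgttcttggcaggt
Tgtp2 (chr11:49064259-49064308, minus strand): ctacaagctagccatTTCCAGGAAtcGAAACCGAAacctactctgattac
Slfn5 (chr11:82951932-82951993, plus strand): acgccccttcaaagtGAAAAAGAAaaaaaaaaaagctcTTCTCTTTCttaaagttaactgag
Stat2 (chr10:128270262-128270300, plus strand): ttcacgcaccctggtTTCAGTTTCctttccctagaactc
Socs1 (chr16:10785590-10785634, minus strand): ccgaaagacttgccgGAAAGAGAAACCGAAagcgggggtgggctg
Ifit3 has 3 ISRE cores, which begin 155, 121 and 102 bases before the start. In Gm12250, an interferon-induced GTPase gene, a GAS element lies between 2 ISRE cores, and in Tgtp2 the GAS element lies next to the core. The 2 cores of Socs1 overlap.
The next 4 sequences belong to genes that fell with ruxolitinib in CM and were not called in DMEM. They were picked for a match as well, so the 2 groups of sequences cannot show a difference between such genes.
Steap4 (chr5:7960341-7960379, plus strand): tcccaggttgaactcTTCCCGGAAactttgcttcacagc
Tnfrsf9 (chr4:150927848-150927886, plus strand): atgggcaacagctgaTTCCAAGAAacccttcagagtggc
Irf8 (chr8:120736172-120736228, plus strand): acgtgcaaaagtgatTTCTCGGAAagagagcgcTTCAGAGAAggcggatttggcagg
Cd274 (chr19:29367347-29367385, plus strand): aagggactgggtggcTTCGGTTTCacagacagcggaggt
Steap4 and Tnfrsf9 have 1 GAS element each and Irf8 has 2, with no ISRE core in these windows. Cd274 has 1 ISRE core and no GAS element, as does Stat2 in the first group. A kappaB motif, searched in the same way and found in 3.90% of all promoters listed, has 2 matches in the windows of Steap4 and of Tnfrsf9, which overlap in Tnfrsf9, and 0 in those of the other genes shown.

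Antiviral genes that interferons induce held more of the genes called lower, by number, than any other list examined. By share called lower, the smaller list of Schlafen and PYHIN genes stood higher (70.6% against 62.0%). Of 79 antiviral genes tested, 49 were called lower and 0 higher (57 in the model with replicate numbers), with a median log2 fold change of -1.03 against 0.01 over all genes. Their summed level was 7156, 9266 and 7124 CPM in CM and 4902, 5821 and 4882 CPM in CM + Rux. All 3 samples with ruxolitinib lay below all 3 without it. Oas2 (ENSMUSG00000032690, chromosome 5 from 120730333 to 120749853 of GRCm38), which makes the 2-5A messenger of the antiviral RNase L pathway, had 68.8, 81.7 and 78.3 CPM in CM against 6.77, 9.33 and 7.02 CPM in CM + Rux. Its log2 change was -3.30 ± 0.19 (SE, adjusted p = 1.1e-06), and the groups were far apart. Ifit3 (ENSMUSG00000074896, chromosome 19 from 34583531 to 34588731), of a family that binds viral RNA, had 3.51, 8.71 and 4.4 CPM in CM against 0.162, 0.46 and 0.407 CPM in CM + Rux, a log2 change of -4.06 ± 0.49 (SE, adjusted p = 0.00026). Its neighbour Ifit3b is close to it in sequence, and how fragments that align to both were counted is not given in the sources used here. Mx2, a GTPase that blocks viruses, had 4.01, 14.9 and 7.41 CPM in CM against 0.378, 1.14 and 0.254 CPM in CM + Rux, with a change of -3.78 ± 0.49 (SE, adjusted p = 0.00044). Within each group the highest value of Mx2 was that of replicate 2, as it was for Ifit3. Ifi44l changed by -3.44 (adjusted p = 0.00012), Ifit2 by -3.61 (adjusted p = 0.00027) and Rtp4, which helps receptors reach the cell surface, by -3.27 (adjusted p = 0.0013).

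Many genes of interferon-induced GTPases and DNA sensors were also lowered. The products of GBP and IRG genes attack the vacuoles of intracellular pathogens. Of 14 tested, 7 were called lower and 0 higher (9 lower with the replicate number), with a median of -1.37. A negative fold change was found for 13 of the 14. Their summed level was 672, 587 and 652 CPM in CM against 592, 435 and 637 CPM in CM + Rux, and these groups overlapped. Tgtp2 had 1.34, 1.75 and 1.87 CPM in CM against 0.135, 0.315 and 0.407 CPM in CM + Rux, a log2 change of -2.61 ± 0.33 (SE, adjusted p = 0.0004). Ifi47 was at 14.5, 21 and 18 CPM in CM against 4.02, 3.97 and 5.65 CPM in CM + Rux, with a change of -2.0 ± 0.18 (SE, adjusted p = 4.1e-05). For both GTPases every CM + Rux value was below every CM value. Of 17 tested Schlafen and PYHIN genes, the second of which include sensors of cytosolic DNA, 12 were called lower and 0 higher (15 lower with the replicate number), with a median of -1.26. In DMEM the counts called lower with ruxolitinib were 57 of the antiviral genes, 13 of the GTPases and 10 of the Schlafen and PYHIN genes. Slfn5 had 250.1, 406 and 289.9 CPM in CM against 92.2, 111 and 98.6 CPM in CM + Rux, a change of -1.65 ± 0.19 (SE, adjusted p = 0.00017). Slfn1, a Schlafen gene that restrains lymphocyte growth, had 2.78, 5.14 and 1.34 CPM in CM against 0.0809, 0.533 and 0.102 CPM in CM + Rux, a change of -3.54 ± 0.62 (SE, adjusted p = 0.0041). The PYHIN gene Ifi214 changed by -2.23 (adjusted p = 0.035). The call of Ifi214 (0.078 to 0.21) was lost without CM 2 or 3 or CM + Rux 1 or 3 (adjusted p 0.0037 to 0.21 over all alternatives).

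Transcription factors of the pathway and class I presentation were lowered in part. Of 8 interferon regulatory factors tested, 3 were called lower. Irf9, the DNA-binding partner of STAT proteins at the ISRE, had 59.8, 75.3 and 68.1 CPM in CM against 21.9, 27.4 and 24.8 CPM in CM + Rux, a log2 change of -1.46 ± 0.13 (SE, adjusted p = 4.1e-05). Irf7, which amplifies type I interferon, changed by -1.41 (adjusted p = 0.0025), and Irf8, a lineage factor of monocytes, had 267, 297 and 282 CPM in CM against 137, 143 and 174 CPM in CM + Rux and changed by -0.90 ± 0.10 (SE, adjusted p = 0.00012). The groups did not overlap for any of the 3. Of 23 genes of MHC class I presentation 3 were called lower and the median of the list was -0.12. They were H2-T24 (-1.02, adjusted p = 0.0018), the peptide transporter gene Tap1 (-0.81, adjusted p = 0.0025) and Nlrc5, the transactivator of class I genes (-0.65, adjusted p = 0.00063). Of 12 genes of class II presentation none was called (0 also in the model with replicate numbers), with a median of -0.03.

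**Figure D3:**
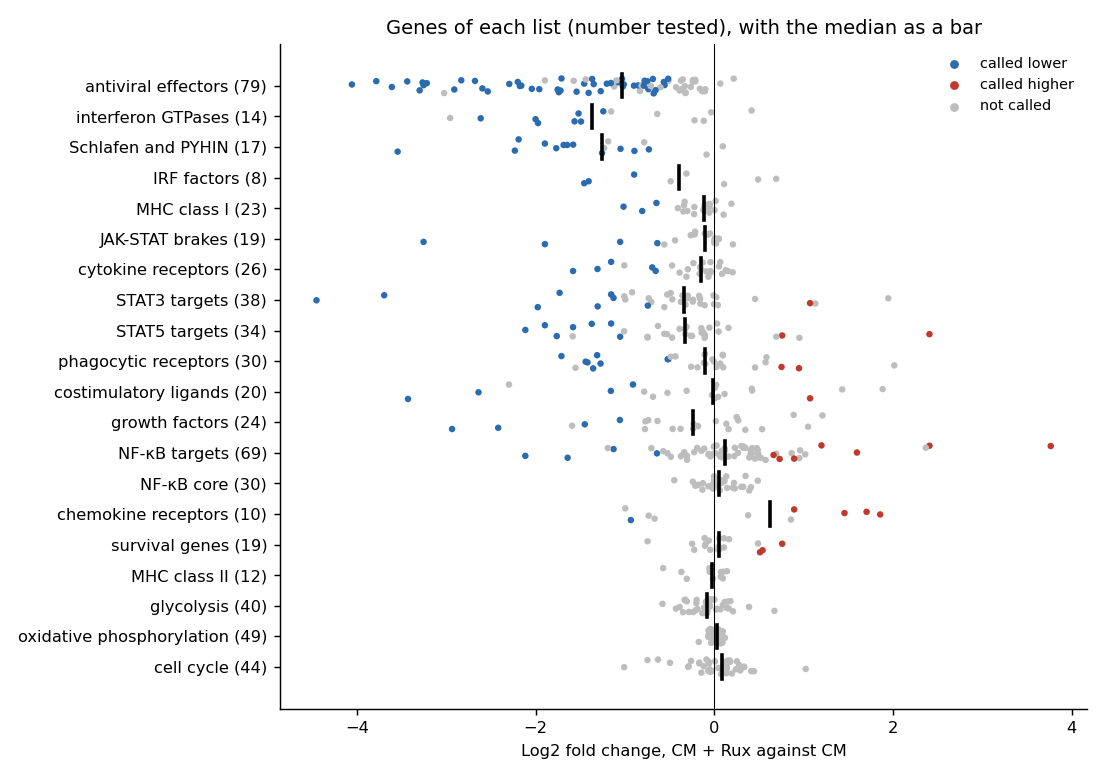
Log2 fold change in CM + Rux against CM of each tested gene of 20 lists (number tested in parentheses), with called genes in blue or red and the median of each list as a black bar. The medians of the antiviral, GTPase and Schlafen and PYHIN lists lie between -1.37 and -1.03, while those of the glycolysis, oxidative phosphorylation and cell cycle lists lie near 0.

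Of the 4 kinase genes themselves 1 was called. Jak3, the kinase of receptors that share the common gamma chain, had 62.3, 59.1 and 68.1 CPM in CM against 35.1, 38.3 and 42.6 CPM in CM + Rux, a log2 change of -0.71 ± 0.11 (SE, adjusted p = 0.0022). Jak1 had 482, 420.4 and 431 CPM in CM against 391, 339 and 352 CPM in CM + Rux, and its change of -0.30 (adjusted p = 0.046) was below the fold threshold. Jak2, at 734, 761 and 699.7 CPM in CM against 659, 741 and 659 CPM in CM + Rux, had a log2 change of -0.09 (adjusted p = 0.82) and its groups overlapped. Tyk2 had 143, 119.5 and 136 CPM in CM against 188, 148 and 166 CPM in CM + Rux and a change of 0.33 (adjusted p = 0.078), and it was not called although the groups lay apart.

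Of the genes of STAT proteins described here, Stat2 was called lower. Stat2, which acts with IRF9 in type I interferon signalling, had 104, 164 and 109 CPM in CM against 60.9, 80.7 and 66.7 CPM in CM + Rux, a log2 change of -0.85 ± 0.18 (SE, adjusted p = 0.014). It fell in each replicate pair. The call of Stat2 (0.057 to 0.081) was lost without CM 2 or CM + Rux 1 or 3 (adjusted p 2e-07 to 0.081 over all alternatives). The groups of Stat3, Stat5a, Stat5b and Stat6 overlapped and none of them was called. Stat3 was at 696, 777 and 529.8 CPM in CM against 542, 624 and 435 CPM in CM + Rux, with a change of -0.32 (adjusted p = 0.42). The values were -0.01 (adjusted p = 0.98) for Stat5a, -0.14 (adjusted p = 0.46) for Stat5b and 0.01 (adjusted p = 0.96) for Stat6.

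Brakes of JAK signalling did not move as 1 group. Of 19 tested, 4 were called lower and 0 higher. Usp18, which blocks the interferon receptor and removes ISG15 from proteins, had 10.3, 25.9 and 13.3 CPM in CM against 1.94, 1.53 and 1.78 CPM in CM + Rux, a log2 change of -3.25 ± 0.35 (SE, adjusted p = 0.00012). Socs2, a feedback gene of STAT5, had 9.57, 14.7 and 9.94 CPM in CM against 1.54, 4.48 and 3.21 CPM in CM + Rux, a change of -1.90 ± 0.40 (SE, adjusted p = 0.014). Cish, another STAT5-induced brake, had 136, 147 and 122 CPM in CM against 57, 88 and 49.2 CPM in CM + Rux, a change of -1.05 ± 0.23 (SE, adjusted p = 0.018). For these 3 genes no sample with ruxolitinib reached a sample without it, but CM + Rux replicate 2 held the highest value of Socs2 and Cish with ruxolitinib. The call of Socs2 (0.066 to 0.07) was lost without CM 2 or CM + Rux 1 and that of Cish (0.052 to 0.098) without CM 1 or 2 or CM + Rux 1 or 3 (adjusted p 8e-07 to 0.098 over all alternatives). Ptpn1, a phosphatase of JAK2 and TYK2, changed by -0.64 (adjusted p = 0.0043). Socs1, at 18.9, 18.2 and 17.8 CPM in CM against 14.6, 16.5 and 14.4 CPM in CM + Rux, had a change of -0.26 (adjusted p = 0.29), and Socs3, at 1914, 2598 and 1837 CPM in CM against 1168, 1949.8 and 1188 CPM in CM + Rux, had -0.56 (adjusted p = 0.56). Neither was called, and the groups of Socs3 overlapped. A fit of the compared groups alone with the replicate number called Socs3 lower (adjusted p 7.9e-07 to 0.8 over all alternatives).

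Of 26 receptor genes that signal through JAKs, 5 were called lower and 0 higher. Il4ra, the alpha chain of the IL-4 and IL-13 receptors, had 871, 1220.0 and 799.9 CPM in CM against 341, 590.0 and 367 CPM in CM + Rux, a log2 change of -1.16 ± 0.25 (SE, adjusted p = 0.016). Il6ra, the IL-6 receptor, had 112, 109 and 80.2 CPM in CM against 39.9, 43.7 and 37.9 CPM in CM + Rux, with a change of -1.31 ± 0.15 (SE, adjusted p = 0.00019). The samples of the 2 groups lay apart for both. Il2ra, the high-affinity chain of the IL-2 receptor, changed by -1.58 (adjusted p = 0.0087), the IL-13 receptor gene Il13ra1 by -0.69 (adjusted p = 0.021) and the G-CSF receptor gene Csf3r by -0.66 (adjusted p = 0.0023). The call of Il4ra (0.081 to 0.094) was lost without CM 2 or CM + Rux 1 or 3, that of Il2ra (0.057) without CM + Rux 1 and that of Il13ra1 (0.059 to 0.11) without CM 1 or 2 or CM + Rux 1 or 2 (adjusted p 4.5e-09 to 0.11 over all alternatives). Of 12 cytokine genes that signal through JAKs 0 were called lower and 2 higher, Csf2 and Lif (1 lower and 4 higher in the model with replicate numbers), with a median of 0.57.

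Among known targets of STAT3, and of IL-6 and IL-10, 8 of 38 were called lower and 1 higher (13 and 3 with the replicate number), with a median of -0.34. Steap4, a metalloreductase of iron uptake that IL-6 induces, had 1.39, 4.07 and 2.53 CPM in CM against 0.108, 0.17 and 0.0509 CPM in CM + Rux, a log2 change of -4.45 ± 0.63 (SE, adjusted p = 0.00092). Every CM + Rux sample had at most 0.17 CPM, and the gene was also near 0 in DMEM. Selp, P-selectin of activated platelets and endothelium, had 3.28, 3.33 and 3.5 CPM in CM against 0.216, 0.266 and 0.305 CPM in CM + Rux, a change of -3.69 ± 0.24 (SE, adjusted p = 2.6e-05), and its values within each group were close together. Timp1, an inhibitor of matrix metalloproteinases, had 65.1, 128 and 68.9 CPM in CM against 14, 33 and 19.5 CPM in CM + Rux, a change of -1.98 ± 0.40 (SE, adjusted p = 0.011). Mt1, a metallothionein that binds zinc and copper, had 209, 316 and 188 CPM in CM against 64.8, 82.7 and 66.9 CPM in CM + Rux, with a change of -1.73 ± 0.17 (SE, adjusted p = 7.6e-05), and its neighbour Mt2 changed by -1.31 (adjusted p = 0.0089). Il1rn, the antagonist of the IL-1 receptor, was the called gene with the largest fall in CPM, from 4467, 6563 and 4213 CPM in CM to 1846, 3099 and 2029.8 CPM in CM + Rux, a change of -1.13 ± 0.21 (SE, adjusted p = 0.0068). The groups did not overlap for any of these genes. The call of Il1rn was lost in a fit of the compared groups alone without the replicate number (adjusted p = 0.052, the highest of its alternatives, the lowest being 1.2e-09). The call of Timp1 (0.054 to 0.067) was lost without CM 2 or CM + Rux 1 or 3 and that of Mt2 (0.059) without CM + Rux 1 (adjusted p 7.9e-10 to 0.075 over all alternatives).

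Of 34 targets of STAT5 and GM-CSF 7 were called lower and 2 higher (12 and 4 with the replicate number), with a median of -0.33. Besides Socs2, Cish, Il2ra and Il4ra, the lower genes were Tnfrsf9, Id1 and Dusp6. Tnfrsf9, the costimulatory receptor 4-1BB, had 111, 165 and 98.5 CPM in CM against 14.4, 50.4 and 21 CPM in CM + Rux, a log2 change of -2.11 ± 0.46 (SE, adjusted p = 0.016). Id1, an inhibitor of basic helix-loop-helix factors, changed by -1.76 (adjusted p = 0.015) and Dusp6, a phosphatase of ERK, by -1.37 (adjusted p = 0.022). All samples with ruxolitinib were below all samples without it for the 3 genes. The call of Tnfrsf9 (0.072 to 0.081) was lost without CM 2 or CM + Rux 1 or 3 and those of Id1 (0.076 to 0.084) and Dusp6 (0.12) without CM 2 or CM + Rux 1 (adjusted p 2.8e-07 to 0.12 over all alternatives). The 2 targets that rose were Lif and Pim2, a survival kinase, which changed by 0.76 (adjusted p = 0.0019).

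Surface receptors of phagocytosis and immune recognition fell in several families. Of 30 tested scavenger, lectin, Fc and efferocytosis receptor genes, 8 were called lower and 2 higher, with a median of -0.11. Fcgr3, an activating receptor for IgG, had 735, 1017 and 680.4 CPM in CM against 235, 433 and 312 CPM in CM + Rux, a log2 change of -1.31 ± 0.22 (SE, adjusted p = 0.0026). The inhibitory IgG receptor gene Fcgr2b had 625, 763 and 773 CPM in CM against 195, 245 and 368 CPM in CM + Rux, a change of -1.42 ± 0.29 (SE, adjusted p = 0.012). Both the activating and the inhibitory receptor had lower values in every sample with ruxolitinib. Mertk, a receptor that takes up dying cells, had 12.9, 23.6 and 14.5 CPM in CM against 4.72, 6.25 and 4.58 CPM in CM + Rux, a change of -1.71 ± 0.25 (SE, adjusted p = 0.0012). The IgG receptor gene Fcgr4 changed by -1.44 (adjusted p = 0.024) and the scavenger receptor gene Msr1 by -0.51 (adjusted p = 0.029). The call of Fcgr2b (0.074) was lost without CM + Rux 1, that of Fcgr4 (0.094 to 0.13) without CM 2 or CM + Rux 1 or 3 and that of Msr1 (0.064 to 0.14) without CM 1, 2 or 3 or CM + Rux 1 or 2 (adjusted p 5.6e-08 to 0.14 over all alternatives). In the other direction, Timd4, another receptor for dying cells, had 22.4, 24.4 and 34.5 CPM in CM against 42.2, 57.3 and 57.6 CPM in CM + Rux and rose by 0.95 ± 0.19 (SE, adjusted p = 0.011), and Olr1, which binds oxidised LDL, changed by 0.75 (adjusted p = 0.04). The call of Timd4 (0.057 to 0.065) was lost without CM 1 or 2 and that of Olr1 (0.057 to 0.14) without any 1 of the 6 samples (adjusted p 1.6e-08 to 0.14 over all alternatives).

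Tlr4, the receptor for LPS, had 267, 234 and 215 CPM in CM against 127, 117 and 105 CPM in CM + Rux, a log2 change of -1.04 ± 0.12 (SE, adjusted p = 0.00024), and was the only member of 21 Toll-like receptor and adaptor genes called lower. Ticam2, the adaptor that TLR4 uses to signal from endosomes, had 40.4, 48.3 and 45.8 CPM in CM against 82.8, 87.6 and 82 CPM in CM + Rux and rose by 0.91 ± 0.09 (SE, adjusted p = 5.7e-05). For neither did the groups overlap. Scimp, an adaptor that couples Toll-like receptors to tyrosine kinases, had 19.2, 28.2 and 16 CPM in CM against 1.38, 2.93 and 1.12 CPM in CM + Rux, a change of -3.49 ± 0.45 (SE, adjusted p = 0.00042).

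Of 20 costimulatory and checkpoint genes 4 were called lower and 1 higher (8 and 3 with the replicate number). Slamf1, a self-binding receptor of immune cells, had 9.85, 7.7 and 13.8 CPM in CM against 0.755, 0.848 and 1.42 CPM in CM + Rux, a log2 change of -3.43 ± 0.44 (SE, adjusted p = 0.0004). The ligands of PD-1 also fell. Cd274, which encodes PD-L1, had 905, 1009.9 and 849.7 CPM in CM against 453, 604 and 413 CPM in CM + Rux, a change of -0.91 ± 0.20 (SE, adjusted p = 0.016), and Pdcd1lg2, which encodes PD-L2, had 2, 1.81 and 1.34 CPM in CM against 0.243, 0.339 and 0.204 CPM in CM + Rux, a change of -2.64 ± 0.32 (SE, adjusted p = 0.00027). The samples of CM and CM + Rux lay apart for both ligands, and the level of Pdcd1lg2 was low in all 6. Lgals9, galectin-9, changed by -1.16 (adjusted p = 0.003). Icosl, the ligand of the T cell receptor ICOS, moved the other way, with 239, 179.8 and 277 CPM in CM against 504, 418 and 540.4 CPM in CM + Rux and a change of 1.07 ± 0.26 (SE, adjusted p = 0.029). The call of Cd274 (0.07 to 0.086) was lost without CM 2 or CM + Rux 1 or 3 and that of Icosl (0.081 to 0.14) without CM 1 or 2 or CM + Rux 1 or 3 (adjusted p 3.1e-09 to 0.14 over all alternatives).

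Secreted growth factors were among the genes lowered. Of 24 angiogenic factors, EGF receptor ligands and related genes tested, 4 were called lower and 0 higher (6 and 2 with the replicate number). Nrg1, a ligand of the ERBB receptors, had 97.1, 124 and 121 CPM in CM against 13.5, 23.8 and 27 CPM in CM + Rux, a log2 change of -2.42 ± 0.29 (SE, adjusted p = 0.00027). Pgf, placental growth factor of the VEGF family, had 13.2, 31.2 and 19.9 CPM in CM against 2.05, 4.72 and 1.32 CPM in CM + Rux, a change of -2.93 ± 0.48 (SE, adjusted p = 0.0025). Pdgfa, a chain of PDGF, was at 78.4, 72.3 and 86.2 CPM in CM against 32.7, 41.6 and 39.6 CPM in CM + Rux, with a change of -1.06 ± 0.11 (SE, adjusted p = 9.8e-05). Inhba, which encodes the subunit of activin A, changed by -1.45 (adjusted p = 0.011). The groups did not overlap for any of the 4. The call of Inhba (0.056 to 0.07) was lost without CM + Rux 1 or 3 (adjusted p 3.2e-07 to 0.07 over all alternatives).

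The genes that ruxolitinib raised in CM included cytokine genes. Csf2 (ENSMUSG00000018916, chromosome 11 from 54247271 to 54249667 of GRCm38), which encodes GM-CSF, had 0.0556, 0.0891 and 0.0407 CPM in CM against 0.917, 0.751 and 1.22 CPM in CM + Rux. The CM samples held at most 3 counts each, so CM + Rux exceeded CM by at least 5.77-fold (adjusted p = 0.0078), though the level of Csf2 was low in both groups. Csf1, the growth factor that macrophages depend on, had 22, 22.6 and 32.5 CPM in CM against 73.2, 82.8 and 77.5 CPM in CM + Rux, a log2 change of 1.6 ± 0.21 (SE, adjusted p = 0.00061). Every CM + Rux sample was above every CM sample, and the call held under all 13 alternatives. Lif, a cytokine of the IL-6 family, had 3.67, 8.74 and 2.36 CPM in CM against 30.2, 37.4 and 12.7 CPM in CM + Rux, a change of 2.41 ± 0.52 (SE, adjusted p = 0.016). Has1, which makes hyaluronan, had 22.9, 32.4 and 23.5 CPM in CM against 60.8, 63.9 and 56.6 CPM in CM + Rux, a change of 1.20 ± 0.26 (SE, adjusted p = 0.015). The calls of Lif (0.058 to 0.069) and Has1 (0.056 to 0.068) were lost without CM 1 or 3 or CM + Rux 1 (adjusted p 3.8e-08 to 0.069 over all alternatives). Tnf had 160.1, 320.4 and 255 CPM in CM against 395, 577 and 517 CPM in CM + Rux, a change of 1.02 (adjusted p = 0.12), and Ccl22, a chemokine that binds CCR4, had 92.1, 84.6 and 162 CPM in CM against 184, 204 and 268 CPM in CM + Rux, a change of 0.95 (adjusted p = 0.073). Neither was called, although no CM + Rux sample of Tnf or Ccl22 fell within the range of CM. The model with replicate numbers gave an adjusted p of 0.042 for Tnf and 0.00057 for Ccl22, within ranges of 9.1e-08 to 0.36 and 4.9e-07 to 0.27 over the alternatives.

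Chemokine receptors moved in both directions. Of 10 tested, 4 were called higher and 1 lower (5 and 4 with the replicate number), with a median of 0.62. Cx3cr1, the fractalkine receptor of monocytes and macrophages, had 46.8, 54.2 and 21.7 CPM in CM against 163, 144 and 92.7 CPM in CM + Rux, a log2 change of 1.70 ± 0.38 (SE, adjusted p = 0.019). Its ligand Cx3cl1, fractalkine, also rose, with 8.12, 13.3 and 14.5 CPM in CM against 26.5, 32.4 and 38.8 CPM in CM + Rux and a change of 1.43 ± 0.28 (SE, adjusted p = 0.0089). Cxcr3, a receptor of interferon-induced chemokines, changed by 1.86 (adjusted p = 0.016) and Ccr9 by 1.46 (adjusted p = 0.033), both from under 1 CPM. Ccrl2, a chemerin-binding receptor, had 228, 328 and 255 CPM in CM against 432, 637 and 435 CPM in CM + Rux and a change of 0.89 (adjusted p = 0.027). Ccr2, the receptor that recruits monocytes, was the 1 that fell, with 29.3, 20.3 and 16.6 CPM in CM against 12.1, 13.3 and 8.7 CPM in CM + Rux and a change of -0.93 (adjusted p = 0.034). The call of Cx3cr1 (0.052 to 0.086) was lost without CM 1 or 3 or CM + Rux 1, that of Cxcr3 (0.058 to 0.089) without CM 2 or CM + Rux 1, that of Ccr9 (0.06 to 0.15) without CM 1 or 2 or CM + Rux 1, 2 or 3, that of Ccrl2 (0.086 to 0.11) without CM 1 or 3 or CM + Rux 2 and that of Ccr2 (0.073 to 0.15) without CM 1 or 2 or CM + Rux 1 or 3 (adjusted p 7.1e-09 to 0.15 over all alternatives).

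Of 16 genes of the GFI1, BCL6 and ID type of transcriptional repressors tested, 2 were called higher, Gfi1 and Zbtb32, and 1 lower, Id1, and the median of the list was 0.15. Gfi1, a repressor of myeloid genes, had 1, 1.16 and 0.692 CPM in CM against 7.34, 3.54 and 5.5 CPM in CM + Rux, a log2 change of 2.50 ± 0.36 (SE, adjusted p = 0.0011). Zbtb32, another zinc-finger repressor, had 3.78, 4.01 and 3.22 CPM in CM against 9.25, 9.76 and 6.11 CPM in CM + Rux, a change of 1.20 ± 0.20 (SE, adjusted p = 0.0024). Their groups lay well apart. Genes of other roles were called higher as well. Shisa3, an inhibitor of WNT and FGF receptors, had 7.68, 6.21 and 8.39 CPM in CM against 29.1, 22 and 27.6 CPM in CM + Rux, a change of 1.83 ± 0.19 (SE, adjusted p = 0.00012). Ptpru, a receptor tyrosine phosphatase, had 0.556, 0.743 and 1.18 CPM in CM against 2.97, 3.63 and 4.07 CPM in CM + Rux, a change of 2.07 ± 0.35 (SE, adjusted p = 0.0028). All samples with ruxolitinib were above all samples without it for these genes. Treml4, a receptor of the TREM family, changed by 1.67 (adjusted p = 0.00071), Mylip, which degrades the LDL receptor, by 1.15 (adjusted p = 0.0026), and Ampd3, which deaminates AMP, by 1.15 (adjusted p = 0.0055). Cav1, the coat protein of caveolae, was at 61.9, 54.5 and 111 CPM in CM against 209, 163 and 265 CPM in CM + Rux, a change of 1.48 ± 0.29 (SE, adjusted p = 0.0089). The call of Cav1 (0.054) was lost without CM 2 (adjusted p 1e-08 to 0.054 over all alternatives).

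Targets of NF-κB, a family of factors that signals beside the JAK-STAT pathway in inflamed macrophages, moved in both directions. Of 69 tested, 4 were called lower and 7 higher (8 and 12 with the replicate number). These shares are 5.8% lower and 10.1% higher, against 2.13% and 1.2% of all genes. A positive fold change was found for 46 of the 69, with a median of 0.12 over the list. The higher genes were Csf2, Lif, Csf1, Has1, Ccrl2, Tnfaip2 and Sqstm1, and the lower ones Tnfrsf9, Tnfaip6, Il1rn and Map3k8. Tnfaip2 had 1887, 1696 and 2122 CPM in CM against 3244, 2923 and 3297 CPM in CM + Rux and a log2 change of 0.73 ± 0.18 (SE, adjusted p = 0.033). Sqstm1, the autophagy receptor p62, had 971, 842 and 914 CPM in CM against 1828, 1219 and 1267 CPM in CM + Rux and a change of 0.66 ± 0.18 (SE, adjusted p = 0.048), with the highest value in CM + Rux replicate 1. Map3k8, a kinase upstream of ERK, changed by -0.64 (adjusted p = 0.015) and Tnfaip6, a hyaluronan-binding protein, by -1.64 (adjusted p = 0.04). The calls of Tnfaip2 (0.097 to 0.14) and Tnfaip6 (0.11 to 0.17) were lost without CM 1 or 2 or CM + Rux 1 or 3, that of Sqstm1 (0.063 to 0.23) without CM 1, 2 or 3 or CM + Rux 1 or 3 and that of Map3k8 (0.074 to 0.081) without CM 2 or CM + Rux 1 or 3 (adjusted p 1e-08 to 0.23 over all alternatives). The call of Sqstm1 also did not pass under TMM scaling or the filterByExpr filter. Of 30 genes of the NF-κB subunits, IκB proteins, kinases and brakes 0 were called with either model, and their median was 0.06.

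Of 27 TNF superfamily genes 4 were called lower and 0 higher (5 and 3 with the replicate number), with a median of 0.01. Besides Tnfrsf9 they were Tnfrsf11b, Tnfrsf26 and Tnfrsf23. Tnfrsf11b, osteoprotegerin, which binds RANKL, had 1.34, 1.4 and 1.3 CPM in CM against 0.378, 0.751 and 0.305 CPM in CM + Rux, a log2 change of -1.42 ± 0.33 (SE, adjusted p = 0.025). Tnfrsf26 had 36.1, 43.9 and 39.1 CPM in CM against 19.9, 21.4 and 14.2 CPM in CM + Rux, a change of -1.09 ± 0.15 (SE, adjusted p = 0.00084), and Tnfrsf23, a decoy receptor of TRAIL, changed by -0.76 (adjusted p = 0.0061). The samples with ruxolitinib were the lower ones for all 3. The call of Tnfrsf11b (0.053 to 0.13) was lost without CM 1, 2 or 3 or CM + Rux 1 or 3 (adjusted p 0.0039 to 0.13 over all alternatives). Of 25 leukocyte adhesion genes 3 were called lower and 3 higher (4 and 5 with the replicate number), with a median of 0.03. Itgb3, the β3 integrin, had 2.45, 4.04 and 4.48 CPM in CM against 7.93, 9.28 and 9.47 CPM in CM + Rux and a change of 1.26 ± 0.27 (SE, adjusted p = 0.016), and Jam2, a junctional adhesion molecule, changed by 1.13 (adjusted p = 0.014). The call of Itgb3 (0.05 to 0.063) was lost without CM 1 or 2 or CM + Rux 3 and that of Jam2 (0.058 to 0.081) without CM 1 or 2 or CM + Rux 1 (adjusted p 9e-06 to 0.081 over all alternatives). Jaml, which binds another junctional protein, had 0.278, 0.208 and 0.326 CPM in CM against 0.0539, 0.0242 and 0.0509 CPM in CM + Rux, with at most 3 counts in each CM + Rux sample, so no fold is given.

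Of 34 immediate-early genes 2 were lower, Zfp36l1, which promotes decay of mRNA (-1.15, adjusted p = 0.045), and Batf2, an AP-1 family factor that interferon induces (-0.77, adjusted p = 0.038). Of 20 lineage factors Rara, the retinoic acid receptor alpha, was lower, with 59.5, 81.4 and 56.7 CPM in CM against 23.4, 36.6 and 23.3 CPM in CM + Rux and a log2 change of -1.24 ± 0.22 (SE, adjusted p = 0.0041). Of 26 genes of ERK feedback Dusp22 was higher (0.51, adjusted p = 0.024) and Dusp6 lower. Of 37 genes of cholesterol and fatty acid metabolism 2 were higher, Mylip and Ch25h, which makes 25-hydroxycholesterol and had 4.4, 8.68 and 4.68 CPM in CM against 19.4, 18.2 and 11.5 CPM in CM + Rux, a change of 1.45 ± 0.30 (SE, adjusted p = 0.012). Of 36 ribosome biogenesis genes Heatr1 was lower, with 126, 128 and 109 CPM in CM against 75.6, 79.8 and 78 CPM in CM + Rux and a change of -0.64 ± 0.09 (SE, adjusted p = 0.00063). The calls of Zfp36l1 (0.093 to 0.19) and Dusp22 (0.074 to 0.096) were lost without CM 1 or 2 or CM + Rux 1 or 3, that of Batf2 (0.066 to 0.17) without CM 1 or 2 or CM + Rux 1, 2 or 3 and that of Ch25h (0.053 to 0.06) without CM 1 or 3 or CM + Rux 1 (adjusted p 1.6e-08 to 0.19 over all alternatives). Of 7 interferon-type chemokine genes 0 were called (2 lower and 1 higher with the replicate number), and their median was 0.02. Of 13 other chemokine genes Cx3cl1 was called. The shares called lower were 5.88% for immediate-early genes, 5% for lineage factors, 3.85% for ERK feedback and 2.78% for ribosome biogenesis, against 2.13% of all genes. The shares called higher were 3.85% for ERK feedback, 5.41% for cholesterol and fatty acid metabolism and 7.69% for other chemokines, against 1.2%.

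None of 40 glycolysis and hypoxia genes, 49 subunits of oxidative phosphorylation, 44 cell cycle genes, 31 stress response genes or 13 complement genes was called. In the model with replicate numbers the counts were 1 lower for glycolysis and 2 lower and 1 higher for the cell cycle. The medians of the glycolysis, oxidative phosphorylation and cell cycle lists were -0.08, 0.03 and 0.09. Of 19 survival genes 3 were called higher (15.8%, against 1.2% of all genes) and 0 lower (1 with the replicate number). They were Pim2, Bcl2l11 and Pmaip1. Bcl2l11 and Pmaip1 encode proteins that promote cell death, and they changed by 0.54 (adjusted p = 0.0078) and 0.51 (adjusted p = 0.03). The call of Bcl2l11 (0.046 to 0.047) was lost without CM 2 or CM + Rux 1 and that of Pmaip1 (0.063 to 0.15) without CM 2 or 3 or CM + Rux 1 or 3 (adjusted p 3.5e-07 to 0.15 over all alternatives). For Bcl2l11 this was through the fold threshold. Of 30 Ras and Rap exchange factors and MAP3K genes tested, 3 were called higher, Map3k5, Rasgef1b and Rapgef5, and 1 lower, Map3k8. The shares are 10% higher and 3.33% lower, against 1.2% and 2.13% of all genes. Map3k5, a stress kinase, had 23.1, 30.3 and 25.5 CPM in CM against 47.8, 49.5 and 46.1 CPM in CM + Rux and rose by 0.86 ± 0.12 (SE, adjusted p = 0.00092). Rasgef1b changed by 1.04 (adjusted p = 0.039) and Rapgef5 by 0.69 (adjusted p = 0.016). The call of Rasgef1b (0.073 to 0.17) was lost without CM 1 or 2 or CM + Rux 1 or 3 and that of Rapgef5 (0.069 to 0.073) without CM 1 or CM + Rux 1 (adjusted p 1.1e-08 to 0.17 over all alternatives).

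In DMEM, ruxolitinib lowered 120 genes (0.97% of those tested) and 0 genes were called higher (0%). At an unadjusted p under 0.05 and the same fold threshold 50 genes were higher and 246 lower. DESeq2 also called 0 higher, and the model with the replicate number called 1. The genes lowered in CM fell into classes by what they did in DMEM. Of the 263, 71 were also called lower in DMEM, which is 27.0% of the 263 and 59.2% of the 120. The lists of antiviral genes, interferon-induced GTPases, Schlafen and PYHIN genes and IRF genes hold 59 of the 71 (83.1%). Their median log2 fold change was -1.52 in CM and -1.83 in DMEM, and each had a mean of at least 1 CPM in DMEM. Ifit3 had 33.8 and 74.4 CPM in DMEM and 1.43, 1.07 and 1.65 CPM in DMEM + Rux, and Oas2 had 84.6 and 120.0 CPM in DMEM and 8.59, 9.4 and 7.64 CPM in DMEM + Rux. Both genes were expressed without tumor factors and were lower with ruxolitinib there as well, without overlap.

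The remaining 192 genes were called lower in CM only, and 10 of them (5.21%) are in those interferon lists. Those lists hold 116 of all genes tested (0.94%), so both classes lie above that share. Their median was -0.95 in CM and -0.03 in DMEM, where 107 of the 192 had a negative fold change. In DMEM 40 of them (20.8%) had a mean below 1 CPM, against 6.71% of all genes tested, and a fall from such a level would be hard to detect at this depth. Nrg1 had 0.148 and 0.0819 CPM in DMEM and 0.323, 0 and 0.0648 CPM in DMEM + Rux, and Tnfrsf9 had 0.177 and 0.205 CPM in DMEM and 0.277, 0.179 and 0.227 CPM in DMEM + Rux. Others were well expressed in DMEM without a fall. Tlr4 had 215 and 231 CPM in DMEM and 228, 224 and 174 CPM in DMEM + Rux, and Irf8 had 187 and 195 CPM in DMEM and 204, 197 and 204 CPM in DMEM + Rux. The groups overlapped for Tlr4, and for Irf8 all DMEM + Rux values were slightly above those of DMEM. The 149 genes raised in CM had a median of 0.78 there and -0.03 in DMEM. They were chosen by their effect in CM, which favours a larger median there. In DMEM 25 of the 149 (16.8%) had a mean below 1 CPM, against 6.71% of all genes tested. Csf1 had 7.3 and 7.53 CPM in DMEM and 4.99, 5.76 and 9.62 CPM in DMEM + Rux, also with overlap.

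The difference between the effects of ruxolitinib with and without CM was tested for each gene as an interaction, and 51 genes passed (0.412%). In the model with replicate numbers 444 passed (3.59%). The count of 51 changed with single samples. It was 19 without CM 1, 30 without CM 2, 19 without CM + Rux 1, 23 without CM + Rux 3, 17 without DMEM 1, 114 without DMEM 2, and 24, 33 and 22 without DMEM + Rux 1, 2 and 3. Of the 192 genes lowered in CM only, 20 had a more negative effect in CM by this test, and of the 149 raised genes 20 had a more positive one. In the model with replicate numbers 112 of these 192 and 103 of these 149 differed. The effect in CM is part of the difference, so genes chosen for it are favoured in these counts. Socs1 differed in the opposite sense. It had 0.887 and 0.941 CPM in DMEM and 0.185, 0.29 and 0.291 CPM in DMEM + Rux, or -1.76 on the log2 scale (adjusted p = 0.00098), against -0.26 in CM. A count of 3 is 0.139, 0.067 and 0.0971 CPM in the DMEM + Rux samples, so the fold in DMEM rests on few counts. The difference between the effects was 1.5 (adjusted p = 0.03). The call of that difference was lost when any 1 sample other than CM + Rux 2 was left out (adjusted p 0.0061 to 0.14 over all alternatives). A further 49 genes were called lower in DMEM but not in CM, with medians of -1.37 and -0.38.

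**Figure D4:**
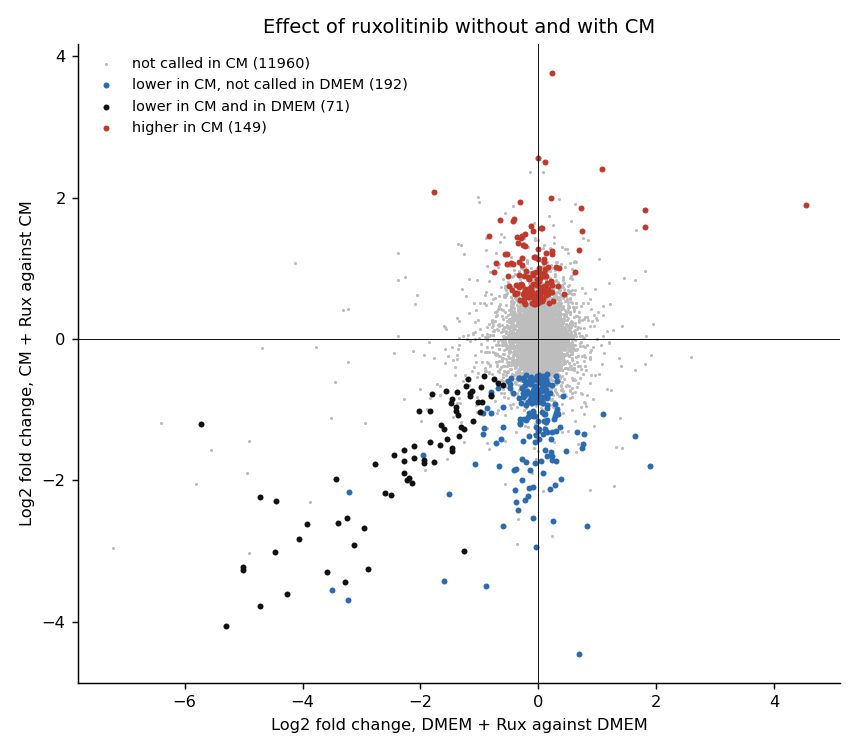
Log2 fold change with ruxolitinib in CM (vertical axis) against that in DMEM (horizontal axis) for each gene. The 71 genes called lower in both media lie at the lower left, while the 192 called lower only in CM and the 149 called higher in CM lie mostly near 0 on the horizontal axis.

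Some of the genes called lower lay side by side on the genome. With called genes of 1 direction joined where the gap was at most 200 kb, 15 runs of 3 or more lower genes held 62 of the 263. These runs span 82 tested genes. The higher genes formed 1 run, of 3 genes. How many runs other genes of the same number would form was not examined. Many runs are gene families with similar members, and how fragments that fit more than 1 member were counted is not given in the sources used here, so the split between members is uncertain. The run of Oas genes (chr5:120730333-120907521 of GRCm38) held 6 tested genes and all 6 were lower, with log2 fold changes of -3.30 to -1.04. The PYHIN run (chr1:173519717-173942672) held 8 tested genes, of which 7 were lower, with -2.23 to -1.05. In the Trim34 and Trim30 run (chr7:104244457-104507849) 5 of 6 were lower (-2.29 to -0.77). In the Schlafen run (chr11:82951349-83215154) 5 of 9 were lower, while Slfn2 had a log2 fold change of 0.09. Runs of genes outside the interferon lists included that of the Fc receptors Fcrlb, Fcgr2b, Fcgr4 and Fcgr3 with Gm10522 (chr1:170907273-171064935), where 5 of 6 were lower (-1.66 to -1.31), and that of Cd274, Pdcd1lg2, A930007I19Rik and Ric1 (chr19:29367455-29606829), where 4 of 4 were lower (-2.64 to -0.76). In the run of Nectin4, Cd244a and Slamf1 (chr1:171370099-171801184) only 3 of 12 were lower (-3.43 to -0.81). Runs were found from the calls themselves, and the genes in them were named after their values were seen.

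**Figure D5:**
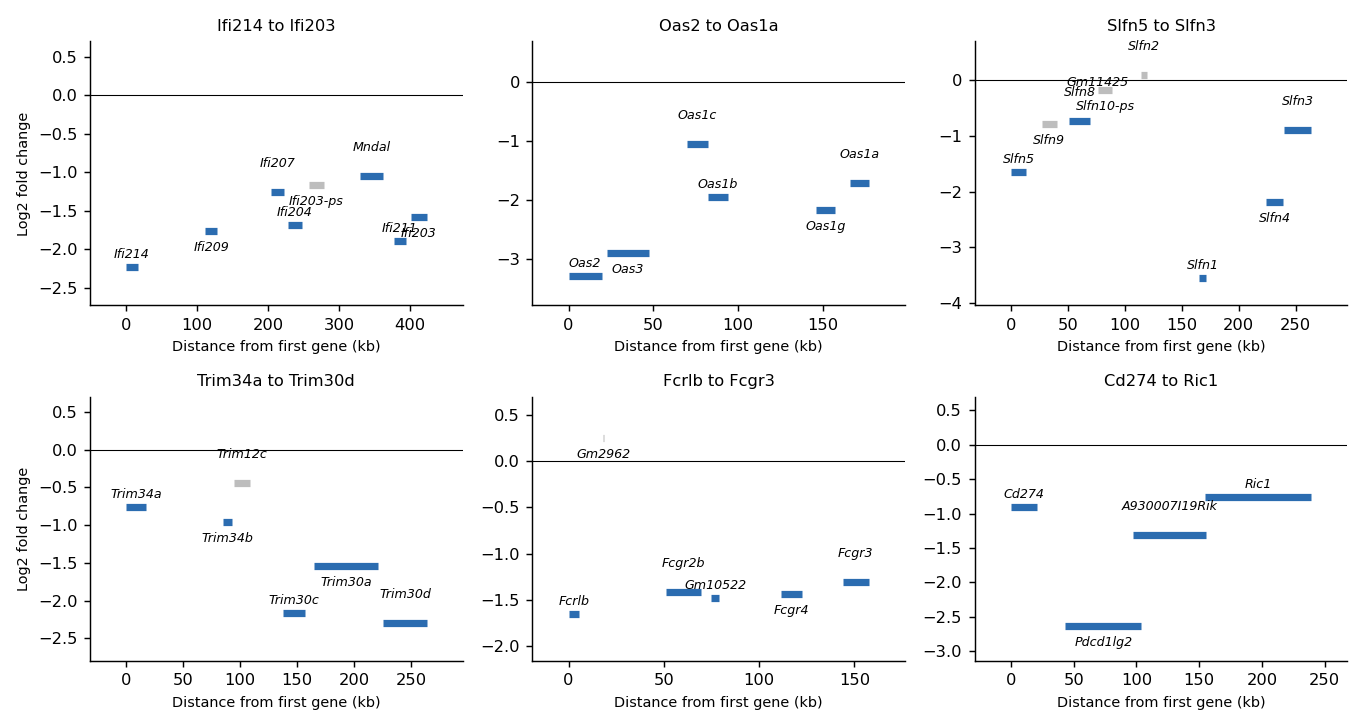
Log2 fold change in CM + Rux against CM of each tested gene in 6 runs of neighbours (vertical axis) against the distance in kb from the first gene of the run (horizontal axis), with the length of a bar showing the extent of the gene. Genes called lower are blue, others grey. In the Oas run all 6 genes are blue, and in the Schlafen run 4 of 9 are grey.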

How the data were processed

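The authors trimmed reads with Trimmomatic 0.33, aligned them to GRCm38 with HISAT2 2.1.0 and counted them per gene with featureCounts 1.6.2, and the deposited file holds these raw counts for 55487 genes, of which 55141 have a symbol. How reads that fit several genes were counted is not given in the sources used here. From the counts, genes above 1 CPM in at least 2 of 16 samples were kept (12372), scaled by RLE and compared with edgeR 4.0.16 (quasi-likelihood test, R 4.3.3) in 1 model of all 6 groups, with Benjamini-Hochberg adjustment over all genes, as were DMEM + Rux against DMEM and the difference of both effects. RLE scaling moved all log2 values of CM + Rux against CM by -0.02. Totals per sample were 18892363 to 46215853 counts, mitochondrial genes took 0.785 to 0.894% of them, and floors of 3 counts cover counting error only.

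Samples were grouped by their titles. Samples of CM and CM + Rux with the same number deviated together from their group means (correlations 0.433, 0.621 and 0.477). The numbers were therefore taken to pair the samples, although the labels do not say what a number marks. Calls and adjusted p-values given without mention of the replicate number come from the model that leaves this pairing out. Named genes were the 15 called genes with the largest falls and rises in fold, the 10 in CPM, the leading called genes of each list and a fixed set, some of which are not reported here. The comparison, the 44 gene lists and the named genes were chosen with earlier results of these data known. Alternatives were TMM scaling, other filters, thresholds and samples in the fit, the replicate number as a block, DESeq2 1.42.0 and leaving out each sample. Samples labelled 2 h and those with IKK-16 entered the model, which shares 1 estimate of the spread, and no comparison.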

Additional observations from a re-analysis of the deposited data

Results flagged for a closer look

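The effect of ruxolitinib differed between CM and DMEM for 15 of the genes named here by the interaction test of edgeR (adjusted p 0.0051 to 0.047). The difference, on the log2 scale as the effect in CM minus the effect in DMEM, was negative for 7 genes, with -2.03 for Mt1, -1.95 for Mertk, -1.37 for Tnfrsf26, -1.30 for Il6ra, -1.17 for Pdgfa, -0.97 for Irf8 and -0.94 for Tlr4. For these genes the fall was present in CM, and the change in DMEM was between -0.09 and 0.30. The difference was positive for 8 genes, with 0.84 for Ticam2, 1.01 for Map3k5, 1.04 for Pim2, 1.07 for Fam129a, 1.5 for Socs1, 1.70 for Timd4, 1.71 for Csf1 and 3.84 for Ptpru. Socs1 fell in DMEM, from under 1 CPM, and was not called in CM, while the other 7 were raised in CM. Of these 7, Ptpru had a log2 change of -1.76 and Timd4 of -0.75 in DMEM, and the others were between -0.29 and 0.06 there. All 15 passed with the replicate number in the model (adjusted p 0.00051 to 0.0096), and all 15 passed under TMM scaling, both other filters and DESeq2. In a fit of only the groups compared without the replicate number 10 of the 15 passed, and Il6ra, Tlr4, Pim2, Timd4 and Csf1 did not.

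The differences rest on few samples without CM. Without DMEM replicate 1, 2 of the 15 passed, Mt1 and Pdgfa, which also passed under all 18 alternatives. In that fit the lone DMEM sample is assumed to vary like the other groups. Without any 1 of the other samples 5 to 12 of the 15 passed. Irf8, Ticam2 and Fam129a were lost without DMEM replicate 1 and under none of the other 17 alternatives.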

How the results depend on the processing

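Between CM + Rux and CM, 263 genes were called lower and 149 higher, 120 were lower in DMEM and 51 differed in the effect. With the replicate block, by the pairing of numbers, there were 440, 305 and 444 called lower, higher and in the difference (DMEM 154), and in a fit of only the groups compared with this block 511, 377, 202 (DMEM) and 330. No call of a named gene was lost with the block in the model of all samples. Without a filter on low counts there were 416 lower, 269 higher and 349 in the difference. DESeq2 called 237 in the difference and an adjusted p under 0.1 gave 142. Without a fold threshold 225 were higher. The other counts under TMM scaling, another filter, DESeq2, other thresholds and the compared groups alone stayed within 1.5 times. Leaving out 1 sample gave 161 to 322 lower, 82 to 164 higher, 103 to 115 lower in DMEM and 17 to 114 in the difference. Where an arm then held 1 sample, it was assumed to vary like the other groups. Of 113 called named genes, 57 were called under every alternative, 56 were lost under at least 1, and 0 changed direction. A fit of only the groups compared without the block lost 28 of these calls, among them Jaml, Ifi214, Tnfrsf9, Tnfaip6, Fcgr4, Tnfrsf11b, Dusp6, Mt2, Zfp36l1, Il1rn, Ccr2, Stat2, Batf2, Map3k8, Pmaip1, Dusp22, Bcl2l11, Sqstm1, Rasgef1b, Jam2, Ccr9, U90926, Gm19026, Cxcr3, Adgb and Lif, and with the block it lost 2, 1 of them Pmaip1. Of the genes not called, Stat5a ranged from -0.12 to 0.054 and Stat6 from -0.0026 to 0.029 when 1 sample was left out, turning direction for Stat5a without CM replicate 1 or CM + Rux replicate 2 or 3 and for Stat6 without CM + Rux replicate 1. Of 1716 list values, 1321 stayed within the margin and 395 moved. The cause of these changes was not tested. Depth limits genes near 1 CPM, where a count of 3 is 0.0727 to 0.167 CPM in these samples.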

Other observations

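The 2 samples labelled CM with ruxolitinib at 2 h entered none of the comparisons. What that time counts from is not given in the sources used here. The values of 6 genes in these samples, chosen after their values were seen, are given in order of replicates 2 and 3. Tnfrsf9 had 6.63 and 2.4 CPM, Nrg1 had 3.81 and 2.8 CPM and Tlr4 had 67.7 and 56.7 CPM. Csf2 had 3.89 and 7.6 CPM, Csf1 had 98.4 and 118 CPM and Socs1 had 4.83 and 3.8 CPM.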
